A study of Mus musculus with 20 samples.

Results

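The genes described here are the 38 that the deposited counts table places on chromosome M, the mitochondrial genome, of 33495 genes in all. Membership was decided by position alone, and the set was chosen with earlier results of these data known. By their known roles they were 2 rRNA genes, 13 genes coding for proteins, 22 tRNA genes and 1 microRNA entry, mmu-mir-805. All 38 passed the filter on low counts in each of the 3 Cre lines, so every member was tested in every line.

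The libraries were RNA-seq of C57BL/6 mouse embryos in which Kmt2d, encoding a histone H3 lysine 4 methyltransferase, was deleted by Cre. Mutants were Cre; Kmt2d fl/fl; mTmG/+ and controls were Cre; Kmt2d fl/+; mTmG/+, so the controls also carried Cre, a floxed Kmt2d copy and the mTmG reporter at Rosa26. Mesp1Cre, active in early mesoderm including heart precursors, was used with whole hearts labelled E9.0 (4 mutants and 4 controls). Mef2cAHF::Cre, active in the anterior heart field, was used with right ventricle and outflow tract at E11.5, and Tnnt2::Cre, active in cardiomyocytes, with whole hearts at E11.5 (3 mutants and 3 controls each). A protocol text common to all samples gives E11.5 as the harvest age, which differs from the E9.0 of the Mesp1Cre sample labels. For Mef2cAHF::Cre the column names of the counts table assign mutant and control the opposite way to the sample titles, while the read-file names written above those columns go with the titles. Values for that line are given by the sample labels unless the column names are mentioned, and with the column names each difference within the line has the opposite sign and the same size and FDR. Kmt2d itself, listed as Mll2, went against those labels: it was between 187 and 194 CPM (read counts scaled to library depth) in the libraries labelled mutant and between 146 and 156 CPM in those labelled control (log2 fold change 0.32, FDR 0.036). In Mesp1Cre it was 128 to 144 CPM in mutants and 152 to 164 CPM in controls (-0.21, FDR 0.076), and in Tnnt2::Cre 107 to 116 against 119 to 159 CPM (-0.35, FDR 0.33). Counts over a whole gene include exons outside a deleted part.

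Library totals ran from 21727258 to 45341870 counts. In Mesp1Cre they did not overlap, at 21727258 to 24981332 counts in mutants and 25581534 to 28790705 counts in controls. In Mef2cAHF::Cre, 3 libraries stood apart in the number of genes with a count (24905 to 25872, against 20046 to 22974 in the other 17), namely the one labelled control replicate 1 and those labelled mutant replicates 1 and 2. The heart muscle marker list was present in every library, with a summed level of 14990 to 31460 CPM over its 9 genes. In Mesp1Cre it was at 26160 to 31460 CPM in mutants and 20860 to 27530 CPM in controls (1 gene called higher and 1 lower). In Tnnt2::Cre it was at 21830 to 26780 and 17560 to 22930 CPM (0 called). In Mef2cAHF::Cre it was at 16860 to 17520 CPM in the libraries labelled mutant and 14990 to 18700 CPM in those labelled control (1 called higher). These ranges overlapped in each line. The red blood cell list, 9 genes including hemoglobins, had 5 of 9 genes called lower in Mesp1Cre mutants, against 5.29% of all genes tested. Its summed level overlapped, at 2087 to 7896 CPM in mutants and 5134 to 17200 CPM in controls. The endothelial list had a summed level of 570 to 694 CPM in Mesp1Cre mutants and 391 to 455 CPM in controls (3 of 6 genes called higher). The platelet list was at 39.3 to 203 and 5.697 to 15.96 CPM (2 of 4 called higher). Of all genes tested in that line 6.17% were called higher. In Tnnt2::Cre the red blood cell list was at 20450 to 117500 CPM in mutants and 90190 to 146100 CPM in controls. In Mef2cAHF::Cre the red blood cell list was at 24570 to 45280 CPM in the libraries labelled mutant and 8172 to 32460 CPM in those labelled control, with 9 of 9 estimates above 0 and 1 gene called higher. The platelet list was there at 41.57 to 83.6 CPM in the libraries labelled mutant and 188.3 to 465.6 CPM in those labelled control. Of its 4 genes 3 were called lower. Of all genes tested in that line 1.81% were called higher and 1.04% lower by the labels. The part of these lists in the results that follow was not tested.

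The mitochondrial genome is a small circle transcribed from both strands into long precursors. In most places tRNA genes sit between the rRNA and coding genes, and excising them from the precursor frees the flanking RNAs. The coding genes give core subunits of the respiratory chain and of ATP synthase, and the rRNA and tRNA genes serve the translation of those subunits inside the mitochondrion. All other proteins of the organelle come from nuclear genes. Heart muscle is rich in mitochondria and raises its oxidative capacity as the embryo grows.

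In build mm9 the chromosome M sequence is 16299 bases long. The sequences below are the tRNA genes on which the results turn, from that build and each on its own strand, with the anticodon in capitals. The first 3 lie next to each other and rose together in Mesp1Cre mutants. The next 3 are others that rose, and the last pair fell most among the tRNA genes.

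mt-Th, tRNA for histidine, chrM:11546-11612, plus strand: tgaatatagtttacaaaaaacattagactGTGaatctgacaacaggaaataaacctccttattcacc

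mt-Ts2, tRNA for serine, chrM:11613-11671, plus strand: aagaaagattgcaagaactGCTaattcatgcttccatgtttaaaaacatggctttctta

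mt-Tl2, tRNA for leucine, chrM:11671-11741, plus strand: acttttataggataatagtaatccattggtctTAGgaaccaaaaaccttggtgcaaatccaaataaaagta

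mt-Tk, tRNA for lysine, chrM:7700-7764, plus strand: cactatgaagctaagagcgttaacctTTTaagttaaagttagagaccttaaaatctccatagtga

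mt-Tt, tRNA for threonine, chrM:15289-15355, plus strand: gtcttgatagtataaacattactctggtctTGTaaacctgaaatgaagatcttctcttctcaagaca

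mt-Tp, tRNA for proline, chrM:15356-15422, minus strand: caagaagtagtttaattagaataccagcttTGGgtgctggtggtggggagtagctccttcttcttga

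mt-Tl1, tRNA for leucine, chrM:2676-2750, plus strand: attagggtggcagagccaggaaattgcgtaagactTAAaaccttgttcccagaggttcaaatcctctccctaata

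mt-Tf, tRNA for phenylalanine, chrM:1-68, plus strand: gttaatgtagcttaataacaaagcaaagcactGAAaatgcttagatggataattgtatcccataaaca

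The gene listed as mmu-mir-805 is in the control region, the stretch without coding genes, at chrM:16115-16209 on the minus strand: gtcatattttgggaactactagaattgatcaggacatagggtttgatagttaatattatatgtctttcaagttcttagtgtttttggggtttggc. It is shown whole because no mature arm can be told from its gene-level count, which is given as that of the entry and not of a mature microRNA.

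The tRNA genes were counted over 58 to 75 bases, less than the 100-base reads, so an untrimmed read counted there reaches into flanking sequence. The RNA-seq kit in the sample labels (NuGEN Ovation v2) does not mark strand, the study's methods name a TruSeq cluster kit, and no source used here says whether the counting used strand. Reads of a gene and of an RNA from the opposite strand at the same place may therefore not have been separated. That matters for mt-Nd6, mt-Ts1, mt-Tp and mmu-mir-805 on the minus strand.

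Chromosome M took 13.3 to 30.7% of all gene counts in a library. In Mesp1Cre the share was lower in mutants. The 4 control libraries were at 23.2, 23.2, 23.4 and 22.03%, and the 4 mutants at 13.3, 15.7, 14.3 and 14.1%. The groups did not overlap. The mean was 14.3% ± 1.02 (SD, n = 4) in mutants and 23.0% ± 0.622 in controls, a difference of -8.61 percentage points, and it was -8.81 points with hemoglobin genes left out of the total. In bulk samples, fewer cells of a type and less RNA per cell cannot be told apart.

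The 2 rRNA genes made up most of this share, 12.1 to 13.97% of counts in Mesp1Cre mutants against 19.8 to 21.1% in controls. The coding genes held 1.11 to 1.77% in mutants and 2.06 to 2.21% in controls, again without overlap. The tRNA genes held 0.0533 to 0.0823% in mutants and 0.0726 to 0.0852% in controls, and these ranges overlapped. The share was not tested, and the genes within it were.

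In Mef2cAHF::Cre, the libraries labelled mutant were at 30.1, 30.7 and 30.2% and those labelled control at 27.1, 24.8 and 28.2%. The groups did not overlap, and the difference was 3.64 percentage points by the labels, or -3.64 with the column names. The summed platelet list given above also lay apart between these groups. The summed red blood cell list overlapped, with 9 of 9 estimates above 0 by the labels. Without the 3 libraries with most genes detected the difference in the chromosome M share was 3.65 points by the labels. That value comes from 1 library labelled mutant against 2 labelled control, so it says little about whether the difference holds. The rRNA share differed in the same way (26.8 to 27.2% against 22.3 to 24.9%), while the coding share was 3.23 to 3.36% in the libraries labelled mutant and 2.43 to 3.72% in those labelled control. In Tnnt2::Cre, mutants were at 21.7, 23.2 and 23.9% and controls at 22.5, 19.5 and 25.1%, which overlapped. The difference of 0.528 points turned to -0.917 without hemoglobin genes in the total and to -0.900 without control replicate 2. The coding share in that line did not overlap, at 1.51 to 1.65% in mutants and 1.28 to 1.496% in controls. That coding share was not computed without hemoglobin genes in the total. Gene by gene, on counts scaled between libraries, 6 of the 13 coding genes had estimates above 0 and 7 below. Their median log2 fold change was -0.03, so the coding share does not show a general rise of these genes.

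**Figure D1:**
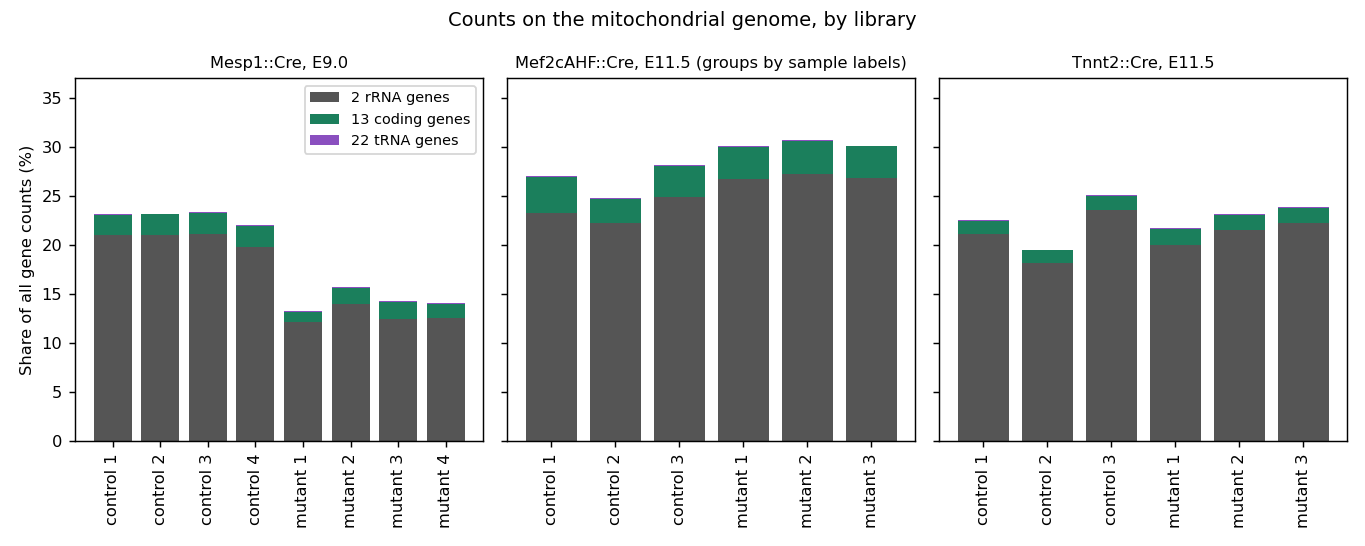
Share of all gene counts (%, bar height from 0) that fell on chromosome M in each of the 20 libraries, divided into rRNA, coding and tRNA genes. The 4 Mesp1Cre mutants lie between 13.3 and 15.7%, below their 4 controls at 22.03 to 23.4%.

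In Mesp1Cre, 24 of the 38 genes passed an FDR of 0.05 in edgeR's quasi-likelihood test, 13 lower and 11 higher in mutants. Of all 15883 genes tested in that line 1821 were called, 6.17% higher and 5.29% lower. The members moved both ways: their median log2 fold change was -0.15, against -0.00182 over all genes tested. Of all 38 members, 11 had every mutant value above every control value and 13 the reverse, against 17.7% of all genes tested in either direction.

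Both rRNA genes fell. mt-Rnr1, the small-subunit rRNA, was at 70140, 68470, 59120 and 51050 CPM in the controls and at 25200, 31450, 29170 and 30080 CPM in the mutants. Every mutant was below every control, and the mean of the mutants was 28980 ± 2685 CPM (SD, n = 4) against 62200 ± 8871 CPM (log2 fold change -1.10 ± 0.0994 SE, FDR 3.2e-05). mt-Rnr2, the large-subunit rRNA, was at 154000, 158100, 158600 and 158200 CPM in the controls and 88390, 104300, 89080 and 86360 CPM in the mutants (-0.77 ± 0.0647, FDR 1.9e-05). On the deposited FPKM values, tested with limma, mt-Rnr2 did not pass (-0.62, FDR 0.16 with 0.1 added), and there the median of all genes moved by 0.15.

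Of the 13 coding genes, 7 fell, 2 rose and 4 did not pass the test. The largest fall was in mt-Nd1, a membrane-arm subunit of complex I, the NADH dehydrogenase. Its controls were at 3042, 3058, 3182 and 3040 CPM and its mutants at 509, 1284, 1055 and 899 CPM. All mutants lay below all controls (log2 fold change -1.72 ± 0.200 SE, FDR 2.0e-04). mt-Cytb, the only mitochondrially encoded subunit of complex III, was at 2935, 2856, 3097 and 2997 CPM in controls and 738, 1462, 1245 and 1143 CPM in mutants (-1.37 ± 0.152, FDR 1.5e-04). Both ATP synthase genes fell: mt-Atp6 was at 268 to 288 CPM in controls and 67.3 to 157 CPM in mutants (-1.39, FDR 5.3e-04), and mt-Atp8 at 76.1 to 88.1 CPM and 31.5 to 44.8 CPM (-1.10, FDR 1.3e-04). Among the subunits of complex IV, the cytochrome c oxidase, mt-Co3 was at 730 to 1063 CPM in controls and 257 to 456 CPM in mutants (-1.20, FDR 5.7e-04). mt-Co1, its catalytic core and the coding gene with the most counts in the controls, was at 7439 to 7577 CPM and 2802 to 4302 CPM (-1.01, FDR 1.5e-04). mt-Nd4, another complex I subunit, had the smallest fall, from 2396 to 2727 CPM in controls to 1284 to 2200 CPM in mutants (-0.48, FDR 0.028). It missed the threshold on FPKM values, in the fit over all 6 groups and without any of control replicates 1, 2 and 3 or mutant replicate 4 (FDR 0.060 to 0.16 over these).

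The 2 coding genes that rose are neighbours on opposite strands, and both encode complex I subunits. mt-Nd6, the only coding gene on the minus strand, was at 510, 525, 452 and 509 CPM in controls and 769, 911, 1193 and 1077 CPM in mutants. Each mutant was above each control (log2 fold change 0.98 ± 0.115 SE, FDR 2.0e-04). mt-Nd5 was at 2934, 3063, 3051 and 2955 CPM in controls and 3265, 4149, 5189 and 4142 CPM in mutants (0.48 ± 0.107, FDR 0.013). The other 4 coding genes were not called. mt-Co2, another subunit of complex IV, was at 941 to 1079 CPM in controls and 444 to 1052 CPM in mutants (-0.57, FDR 0.072). mt-Nd2 was at 263, 270 and 275 CPM in 3 controls and 822 CPM in control replicate 4, against 155 to 452 CPM in mutants (-0.73, FDR 0.27). mt-Nd3 was at 75.2 to 95.4 and 48.2 to 105 CPM (0.04, FDR 0.93), and mt-Nd4l at 62.7 to 73.3 and 54.3 to 117 CPM (0.27, FDR 0.35).

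Of the 22 tRNA genes, 8 rose, 4 fell and 10 did not pass. The 3 whose sequences open the list above, mt-Th, mt-Ts2 and mt-Tl2, rose by nearly equal amounts. mt-Th was at 19.2, 18.3, 30.9 and 17.9 CPM in controls and 54.5, 71.5, 102 and 72.9 CPM in mutants (log2 fold change 1.80 ± 0.208 SE, FDR 2.0e-04). mt-Ts2 was at 11.2 to 19.1 CPM in controls and 34.1 to 65.9 CPM in mutants (1.83, FDR 2.0e-04), and mt-Tl2 at 10 to 18.1 CPM and 31.2 to 62.9 CPM (1.87, FDR 2.6e-04). For all 3, every mutant lay above every control, and control replicate 3 was the highest control. A read can span neighbouring tRNA genes, so the 3 values may share reads and were not taken as 3 separate measurements.

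The largest tRNA rise was in mt-Tp, the minus-strand proline tRNA, at 7.34, 7.51, 9.19 and 5.39 CPM in controls and 38.8, 22.7, 39.9 and 28.0 CPM in mutants (2.13 ± 0.208, FDR 5.8e-05). Its neighbour mt-Tt was at 2.92 to 4.19 CPM in controls and 8.99 to 17.2 CPM in mutants (1.69, FDR 8.3e-04). mt-Tk rose from 7.04 to 10.1 CPM in controls to 16.4 to 24.0 CPM in mutants (1.37, FDR 4.7e-04). mt-Tr, the arginine tRNA, rose from 10.7 to 17.7 CPM to 19.7 to 42.1 CPM (1.17, FDR 0.0048). mt-Ti, the isoleucine tRNA, had the smallest rise, from 3.89 to 5.27 CPM to 6.81 to 10.2 CPM (0.74, FDR 0.044), and it missed the threshold without any of 7 of the 8 libraries, mutant replicate 2 excepted (FDR 0.071 to 0.12). mmu-mir-805 had the largest rise of all members, at 1.11, 1.80, 1.94 and 0.864 CPM in controls and 8.18, 6.96, 9.07 and 7.54 CPM in mutants (2.47 ± 0.299, FDR 2.6e-04), on 21 to 207 reads a library.

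The tRNA genes that fell included those with the most counts. mt-Tl1, between mt-Rnr2 and mt-Nd1, was at 92.3, 95.3, 104 and 108 CPM in controls and 12.9, 29.8, 38.1 and 22.03 CPM in mutants (-1.96 ± 0.241, FDR 2.9e-04), the largest fall among the members. mt-Tf, before mt-Rnr1, was at 335, 313, 268 and 237 CPM in controls and 75.0, 94.9, 98.2 and 101 CPM in mutants (-1.65 ± 0.120, FDR 1.2e-05). mt-Tv, the valine tRNA between the rRNA genes, was at 190 to 218 CPM in controls and 101 to 115 CPM in mutants (-0.92, FDR 2.1e-05). mt-Ts1, the other serine tRNA, was at 50.7 to 61.8 CPM and 30.6 to 41.1 CPM (-0.68, FDR 0.0050). These 3 of the 4, mt-Tf, mt-Tv and mt-Tl1, held the highest mean shares of all counts among tRNA genes, 0.0225, 0.0208 and 0.00690%. The 10 tRNA genes not called had log2 fold changes from -0.73 (mt-Ty) to 0.58 (mt-Tg).

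Along the circle, several runs of neighbouring genes had the same call, and the runs described here were picked after the calls were seen. From mt-Tf to mt-Nd1, the first 6 genes of the numbering, all 6 fell, and each rRNA gene moved with the tRNA genes that flank it. Those tRNA genes were counted over 68 to 75 bases, less than a read, so they may share reads with the rRNA genes. From mt-Th to mt-Nd6, all 5 neighbouring genes rose (log2 fold change 0.48 to 1.87). Among the 28 genes before mt-Th, 3 rose (mt-Ti, mt-Tk and mt-Tr, each between genes that fell or were not called), 12 fell and 13 were not called. Of the 5 genes after mt-Nd6, 3 rose and mt-Cytb fell. By strand, 8 of the 28 plus-strand genes rose and 12 fell, while 3 of the 10 minus-strand genes rose and 1 fell, which was mt-Ts1. Length also ran with direction: of the 23 genes counted over fewer than 100 bases 9 rose and 4 fell, and of the 15 longer genes 2 rose and 9 fell. Position and length were not tested apart from each other.

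**Figure D2:**
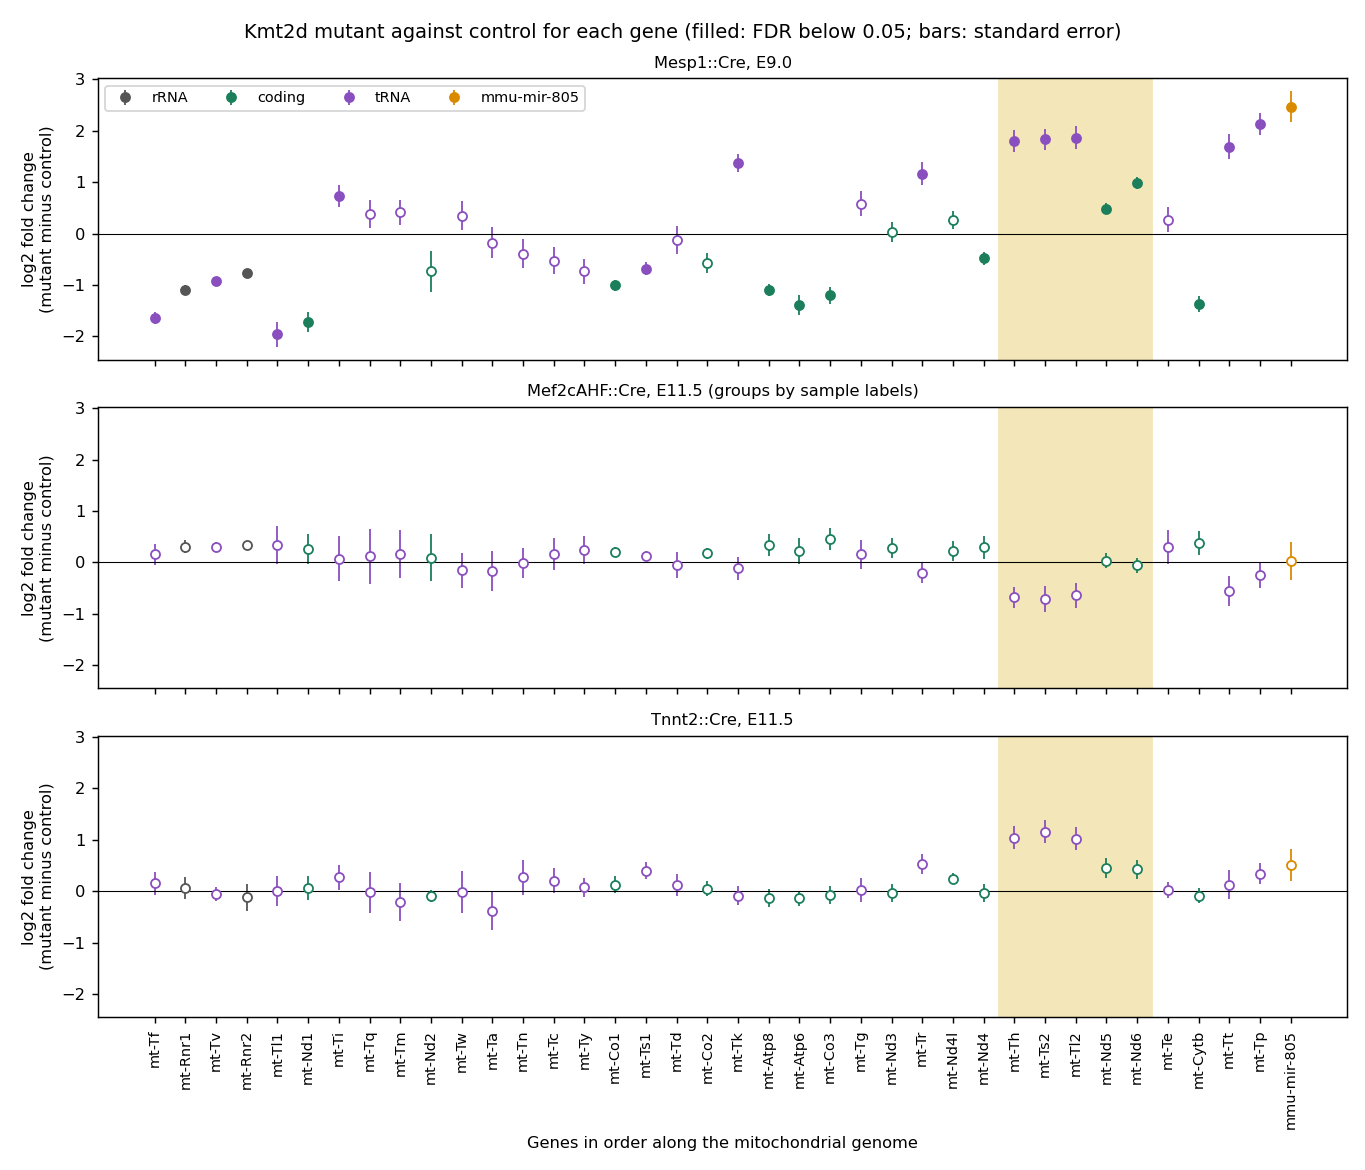
Log2 fold change of mutants against controls (vertical axis, bars are standard errors) for the 38 genes in order along the mitochondrial genome, in the 3 Cre lines, with genes past an FDR of 0.05 filled and the stretch from mt-Th to mt-Nd6 shaded. In Mesp1Cre the first 6 genes are filled and below 0, and the 5 shaded genes are filled and above 0.

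The division of coding counts among the 13 coding genes was also compared. mt-Nd5 took 29.2% ± 2.77 (SD, n = 4) of the coding counts in Mesp1Cre mutants and 13.4% ± 0.319 in controls, and its ranges (25.2 to 31.3% and 13.2 to 13.8%) did not overlap. mt-Nd6 took 6.92% ± 0.952 in mutants and 2.23% ± 0.170 in controls. mt-Nd1 took 6.34% ± 1.20 and 13.7% ± 0.181, and mt-Cytb 7.88% ± 0.812 and 13.3% ± 0.284. mt-Co1 took 26.0% ± 0.716 in mutants and 33.5% ± 0.270 in controls. Within a library, 14.2 to 17.2 mt-Nd6 reads were counted per 100 mt-Nd1 reads in Mesp1Cre controls and 70.9 to 151 in mutants. Such a ratio within a library does not depend on the scaling between libraries. It shows unequal change, and not which of the genes moved.

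**Figure D3:**
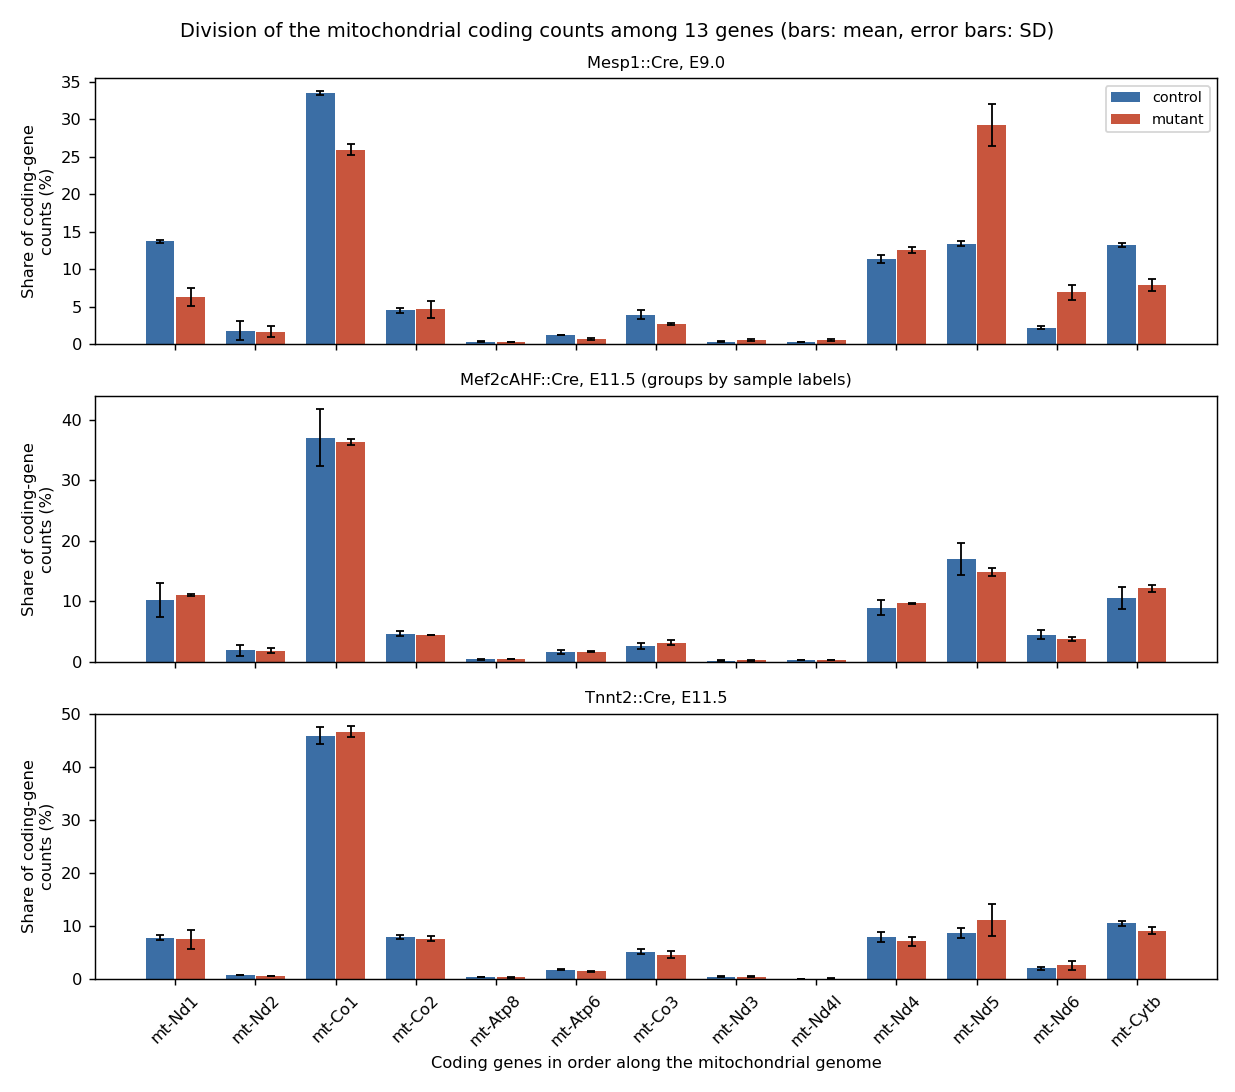
Share of the counts on the 13 coding genes (%, bars from 0, mean with SD) that each gene took, in genome order, for controls and mutants of the 3 Cre lines. In Mesp1Cre, mt-Nd5 rises from 13.4 to 29.2% while mt-Nd1 falls from 13.7 to 6.34%.

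Levels can be compared between genes only per length, on the FPKM scale (fragments per kilobase of gene, scaled to library depth). In Mesp1Cre controls mt-Co1 was highest, at 4607 ± 119 FPKM (SD, n = 4), followed by mt-Nd1 at 3052 ± 120, mt-Cytb at 2458 ± 129 and mt-Nd4 at 1752 ± 121 FPKM, with no overlap between neighbours in this order. mt-Nd5 and mt-Co2 came next and overlapped each other, as did mt-Co3 and mt-Nd6. At the low end, mt-Nd4l (227 ± 17.7 FPKM) and mt-Nd3 (223 ± 29.2 FPKM) overlapped, and mt-Nd2 overlapped both mt-Atp6 before it and mt-Nd4l after it. In Mesp1Cre mutants the order began with mt-Co1 (2551 ± 455 FPKM), mt-Nd5 (2438 ± 447) and mt-Nd6 (2063 ± 393), and ended with mt-Atp6 (174 ± 58.6). There, each of the 12 pairs of neighbours in the order overlapped. mt-Co1 also had the highest mean in the controls of the other lines, at 7354 ± 637 FPKM in the Mef2cAHF::Cre libraries labelled control and 4070 ± 404 FPKM in Tnnt2::Cre controls (n = 3 each). The mean of mt-Co1 was 60.7 times that of mt-Nd4l, the lowest, in Tnnt2::Cre controls. Nuclear copies, described below, covered 100% of mt-Nd4l and of mt-Co2, 31.3% of mt-Co1 and no part of mt-Nd2. The part of such copies in the order of the coding genes was not tested. mt-Rnr2 per length was 1.33 to 1.87 times mt-Rnr1 in Mesp1Cre controls, 1.73 to 2.12 times in Mesp1Cre mutants, 1.13 to 1.52 times in the Mef2cAHF::Cre libraries and 4.31 to 5.41 times in the Tnnt2::Cre libraries. The lines differ in age, tissue and library group, so these values stand side by side without a test.

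In Mef2cAHF::Cre, none of the 38 genes passed an FDR of 0.05, where 2.85% of the 16920 genes tested did. By the labels 26 of the 38 estimates were above 0 and 12 below, with a median log2 fold change of 0.16, and by the column names these are reversed. At an unadjusted p under 0.05 there were 6 members, against 17.9% of all genes. DESeq2 called 1078 of 29613 genes at an FDR of 0.05, of which 4 were members. The lowest FDR was that of mt-Rnr2, at 188900, 206200 and 187600 CPM in the libraries labelled mutant and 157300, 139900 and 163300 CPM in those labelled control (log2 fold change 0.34 by the labels, -0.34 with the column names, FDR 0.065). mt-Rnr1 overlapped between the groups (0.30 by the labels, -0.30 with the column names, FDR 0.25). The groups did not overlap for 3 members, mt-Rnr2, mt-Tv and mt-Co1, each higher in the libraries labelled mutant, against 24.0% of all genes tested in either direction and 12.5% in that one. The coding genes ran from -0.06 (mt-Nd6) to 0.45 (mt-Co3) by the labels, and from -0.45 to 0.06 with the column names.

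The trio mt-Th, mt-Ts2 and mt-Tl2 lay on the other side of 0 from most members. mt-Th was at 21.6, 19.3 and 14.5 CPM in the libraries labelled mutant and 36.3, 31.8 and 20.5 CPM in those labelled control. The groups overlapped (log2 fold change -0.68 by the labels, 0.68 with the column names, FDR 0.13). mt-Ts2 gave -0.70 and mt-Tl2 -0.64 by the labels, 0.70 and 0.64 with the column names (FDR 0.18 and 0.21). With replicate numbers as a block all 3 passed the threshold (FDR 0.015 to 0.027), where 517 of 16920 genes did. Without the 3 libraries that stood apart, mt-Th gave -0.85 by the labels from 1 library against 2.

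In Tnnt2::Cre, again 0 of 38 genes passed an FDR of 0.05 in edgeR, where 0.293% of 17045 genes did. At an unadjusted p under 0.05 there were 7 members, against 11.9% of all genes. DESeq2 called 366 of 25833 genes at an FDR of 0.05, of which 3 were members. Those 3 were mt-Th, mt-Ts2 and mt-Tl2. mt-Th was at 10.2, 16.2 and 9.67 CPM in mutants and 5.96, 6.48 and 5.01 CPM in controls (log2 fold change 1.04 ± 0.216 SE, FDR 0.11). mt-Ts2 was at 6.59, 10.4 and 5.98 CPM in mutants and 3.34, 3.68 and 3.27 CPM in controls (1.16 ± 0.226, FDR 0.098), and mt-Tl2 at 5.34 to 8.67 and 3.00 to 3.32 CPM (1.02 ± 0.222, FDR 0.13). In these 3 genes every mutant was above every control. Without mutant replicate 1 edgeR also called all 3 (FDR 0.017 to 0.021). That fit called 896 of 17487 genes in all, against 50 of 17045 in the main fit. The groups did not overlap for 5 members, these 3 with mt-Tr and mt-Nd4l, each higher in mutants, against 17.1% of all genes tested in either direction and 9.13% in that one.

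The rRNA genes in Tnnt2::Cre gave 0.06 for mt-Rnr1 and -0.12 for mt-Rnr2, with overlapping groups. The coding genes ran from -0.14 (mt-Atp6, 197 to 263 CPM in mutants and 225 to 306 CPM in controls) to 0.45 (mt-Nd5, 1257 to 2054 and 1090 to 1333 CPM, FDR 0.40). mt-Nd6 gave 0.43 (302 to 508 and 260 to 330 CPM, FDR 0.41).

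**Figure D4:**
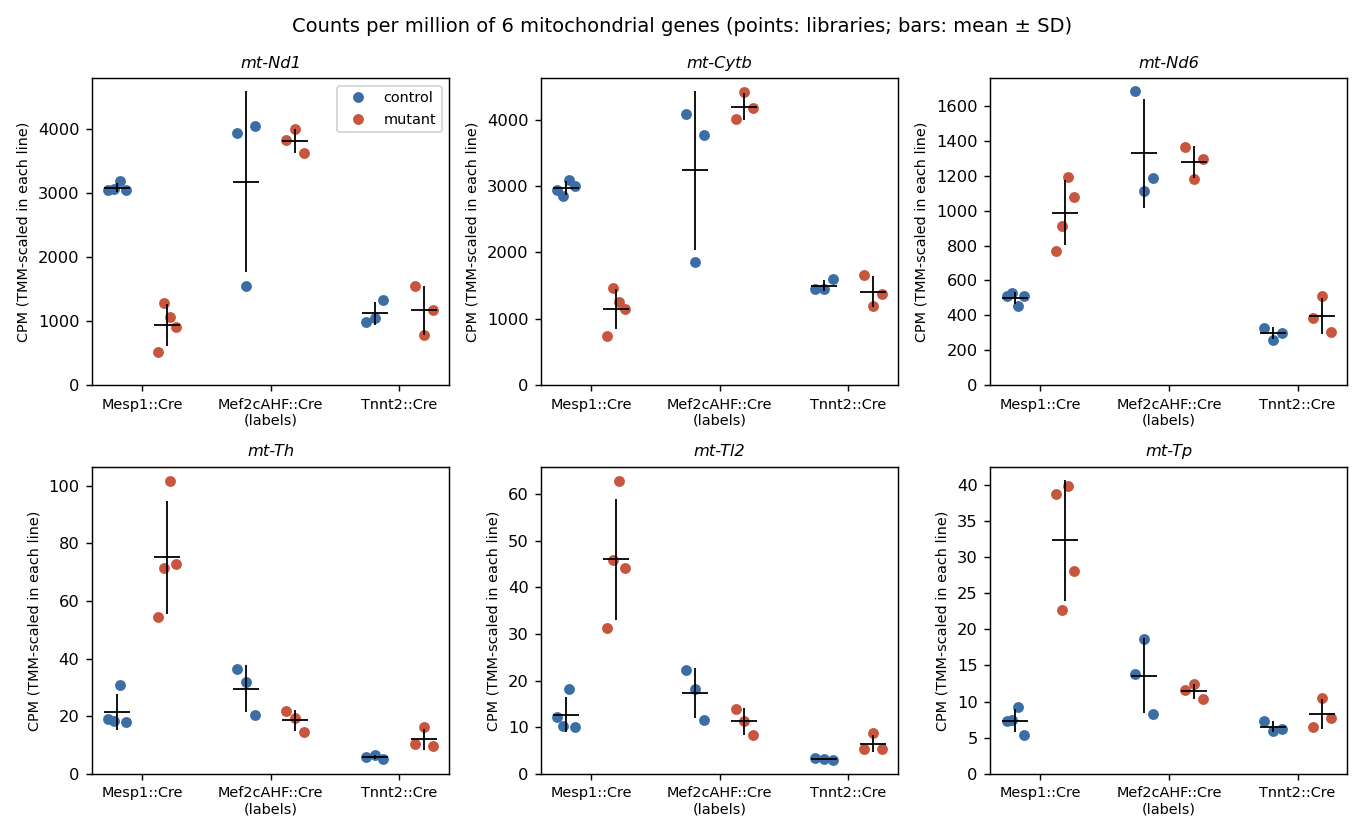
CPM (linear axis from 0, scaled by TMM within each line) of 6 genes in each library, with the mean and SD of each group. mt-Nd1 and mt-Cytb are lower, and mt-Nd6, mt-Th, mt-Tl2 and mt-Tp higher, in all 4 Mesp1Cre mutants than in all 4 controls, and in Tnnt2::Cre the same holds for mt-Th and mt-Tl2 only.

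Whether the effect differed between the lines was tested as a difference of log2 fold changes in a fit over all 6 groups. Between Mesp1Cre and Tnnt2::Cre 15 of 38 members differed, 11 lower and 4 higher in Mesp1Cre, where 3.04% of all 18391 genes did. Both rRNA genes were among them (mt-Rnr1 lower by a log2 difference of -1.18, FDR 0.0053), with 5 coding genes, 7 tRNA genes and mmu-mir-805. mt-Th, mt-Ts2 and mt-Tl2 were not, and neither were mt-Nd5 and mt-Nd6. The count of 15 was 8 without Tnnt2::Cre control replicate 1 or mutant replicate 3, and 9 without control replicate 2 or mutant replicate 1 of that line. Between Mesp1Cre and Mef2cAHF::Cre by the labels 21 members differed, where 11.3% of all genes did, and the largest differences were those of mt-Ts2 (2.52), mt-Tl2 (2.48) and mt-Th (2.46). With the column names these 3 were 1.11, 1.21 and 1.11 and not called (FDR 0.12, 0.096 and 0.10). By the column names 7 members differed, where 1.63% of all genes did: mt-Tf (-1.51), mt-Co1 (-0.82), mt-Rnr1 (-0.82) and mt-Tv (-0.64) lower, and mt-Tk (1.24), mt-Tp (1.87) and mmu-mir-805 (2.49) higher in Mesp1Cre. Of 24 alternatives to that fit, mt-Rnr1 was called in 9, mt-Tv in 15, mt-Co1 in 18, mt-Tk in 19, mmu-mir-805 in 20, mt-Tf in 21 and mt-Tp in 23. The effects in Mef2cAHF::Cre and Tnnt2::Cre differed by the labels for 3 members, where 3.19% of all genes did: mt-Th (-1.72), mt-Ts2 (-1.85) and mt-Tl2 (-1.65). By the column names 0 members and 0.00% of all genes differed between this pair of lines, so the reading of the labels decides that comparison. Leaving out the 3 libraries that stood apart keeps 1 library labelled mutant in that line, assumed to vary like the other groups, so those counts say little about the line. They were 18 for Mesp1Cre against Mef2cAHF::Cre and 0 for Mef2cAHF::Cre against Tnnt2::Cre by the labels, and through the shared estimate of spread 9 for Mesp1Cre against Tnnt2::Cre, neither of which lost a library.

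A list of 46 nuclear genes was taken for the machinery that copies and transcribes the mitochondrial genome and processes and stabilises its RNA. It includes the RNA polymerase Polrmt, the transcription factor Tfam and the endonuclease Elac2. The list also holds the DNA polymerase Polg and regulators of nuclear genes such as Ppargc1a, so it is not RNA machinery alone. In Mesp1Cre 2 of 46 passed the test, both lower, against 5.29% lower and 6.17% higher among all genes, and the list's median log2 fold change was -0.06. They were Rexo2, an exonuclease of short RNAs, at 18.5 to 35.4 CPM in mutants and 41.3 to 50.3 CPM in controls (-0.67, FDR 0.026), and Pprc1, a transcriptional coactivator related to Ppargc1a, at 46.2 to 67.2 and 72.0 to 80.7 CPM (-0.43, FDR 0.025). Without any of control replicates 3 and 4 or mutant replicate 3 neither was called. In Mef2cAHF::Cre 0 of 46 were called by edgeR, against 2.85% of all genes, with 4 at an unadjusted p under 0.05, against 17.9%. In Tnnt2::Cre 0 of 46 were called by edgeR, against 0.293%, with 7 at an unadjusted p under 0.05, against 11.9%. DESeq2 called 0 in both lines. The groups did not overlap for 14 of the 46 with mutants higher in Tnnt2::Cre, against 9.13% of all genes. In Mef2cAHF::Cre by the labels they did not overlap for 10 with mutants lower and 2 with mutants higher, against 24.0% in either direction.

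Nuclear genes for subunits of the respiratory chain and ATP synthase were taken by symbol. Part were taken by the first letters of the symbol, which can bring in related genes that are not subunits. Of these 83 genes, 80 were tested in Mesp1Cre. There 15 were called lower and 2 higher, against 5.29% lower and 6.17% higher among all genes. The list's median log2 fold change was -0.15. The largest fall was in Ndufa11, a complex I subunit, at 33.9 to 55.4 CPM in mutants and 64.0 to 66.2 CPM in controls (-0.48, FDR 0.036). The largest rise was in Cox4i2, an isoform of a complex IV subunit, at 17.5 to 23.1 and 3.55 to 4.57 CPM (2.30, FDR 1.2e-05). The count of 17 ranged from 5 to 19 when any 1 library was left out, and was 5 without control replicate 1, 6 without mutant replicate 1, 8 without mutant replicate 4, 10 without control replicate 2, and 11 without control replicate 4 or mutant replicate 3. In Mef2cAHF::Cre by the labels 8 of the 81 tested were higher and 0 lower (8 lower and 0 higher by the column names), against 1.81% higher and 1.04% lower among all genes, and the largest was Cox8b, a muscle isoform of a complex IV subunit (2.42, 1.92 to 2.33 and 0.252 to 0.488 CPM, FDR 0.0068). The groups did not overlap for 47 of the 81, each higher in the libraries labelled mutant, against 12.5% of all genes. In Tnnt2::Cre 0 of 81 were called by edgeR, against 0.293%, with 5 at an unadjusted p under 0.05, against 11.9%, and 2 by DESeq2, which called 366 of 25833 genes.

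Parts of chromosome M also occur in the nuclear genome, which bears on where reads of the members can align. In mm9, 31.6% of chromosome M had a nuclear copy of at least 100 bases with at least 98% identity. The longest, at chr1:24618374-24623027 on the minus strand, matched 4654 bases at 99.9% identity, from within mt-Co1 to within mt-Nd4. A copy of 129 bases at chr2:69193595-69193723 was identical and held all of mt-Th and 50.9% of mt-Ts2, while mt-Tl2, mt-Nd5 and mt-Nd6 had none. Of the 12 members wholly inside a copy, 3 rose and 4 fell in Mesp1Cre, and of the 23 outside every copy 7 rose and 7 fell. The counts table also lists a gene within the chromosome 1 copy, named mt-Atp6 but with an identifier of its own and not a member. It was at 7.45 to 14.7 CPM in Mesp1Cre mutants and 21.5 to 25.6 CPM in controls (-1.17, FDR 0.0020), beside -1.39 for the mitochondrial mt-Atp6. Another gene listed within that copy, AC116997.1, was at 0.775 to 1.36 CPM in Mesp1Cre mutants and 0.0823 to 0.546 CPM in controls (1.59, FDR 0.10), on 2 to 31 reads a library.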

How the data were processed

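Total RNA of 20 heart samples was amplified with the NuGEN Ovation RNA-seq system v2 and sequenced as paired 100-base reads. The authors aligned reads to mm9 (TopHat2 2.0.8b in the submitters' processing notes), with gene assignment by featureCounts in the study's methods and USeq in the table's name, and deposited raw counts, FPKM and variance-corrected log2 values per gene. The deposited log2 values were not used. The deposited feature lengths were used for counted lengths. How strand and reads shared between genes were handled is not given in the sources used here. No pair of libraries held identical counts. Labels name separate samples but no litters, so p-values measure the spread between these samples, which may be technical.

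Counts were tested per line with edgeR 4.0.16 (filterByExpr, TMM, quasi-likelihood F test, Benjamini-Hochberg FDR over all genes tested, threshold 0.05), after the scripts were tested on simulated data. Differences between lines came from 1 fit over 6 groups. The standard error was |log2 fold change| over √F. CPM values are TMM-scaled within a line, except marker sums, which use plain library totals. Alternatives were DESeq2 1.42.0, limma 3.58.1 on log2(FPKM + 0.1) and log2(FPKM + 1), other filters and scalings, a replicate block and leaving out libraries. Nuclear copies came from BLAST of chromosome M against the mm9 nuclear genome.

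All rRNA and coding genes were to be named, with tRNA genes past the threshold in a line and the 3 with the highest count share. From the nuclear lists up to 3 (machinery list) or 1 (respiratory chain) rises and falls a line were to be named. The members, lists and this rule were chosen with earlier results of these data known. A wrong older symbol for Tefm in the machinery list was corrected after the data were seen.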

Additional observations from a re-analysis of the deposited data

Results flagged for a closer look

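In Mesp1Cre, 9 of 84 groups of 4 values held 1 library far from the other 3, by Dixon's test at the 95% level, which chance gives in about 1 of 20 groups. The controls concerned were replicate 1 for mt-Rnr2 (154000 CPM), replicate 3 for mt-Nd1 (3182 CPM), mt-Tk (10.1 CPM) and mt-Th (30.9 CPM), and replicate 4 for mt-Nd2 (822 CPM), the chromosome M share (22.03%) and the rRNA share (19.8%). The mutants were replicate 2 for mt-Rnr2 (104300 CPM) and replicate 3 for mt-Tm (12.4 CPM).

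The effect of the deletion differed between Mesp1Cre and Tnnt2::Cre for 15 members, as a difference of log2 fold changes past an FDR of 0.05 in edgeR. It was lower in Mesp1Cre for mt-Tl1 (-1.98), mt-Tf (-1.81), mt-Nd1 (-1.79), mt-Cytb (-1.30), mt-Atp6 (-1.27), mt-Rnr1 (-1.18), mt-Co1 (-1.15), mt-Co3 (-1.14), mt-Ts1 (-1.10), mt-Tv (-0.88) and mt-Rnr2 (-0.67). It was higher for mmu-mir-805 (1.94), mt-Tp (1.78), mt-Tt (1.56) and mt-Tk (1.44). Of 24 alternatives, mt-Cytb was called in 21, mt-Nd1 in 19, mmu-mir-805 in 15, mt-Tt in 14, mt-Co3 in 11, mt-Tl1 in 10 and mt-Atp6 in 8, and each of the other 8 in all 24.

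Between Mesp1Cre and Mef2cAHF::Cre by the labels, 21 members differed. The difference was below 0 for mt-Tl1 (-2.31), mt-Nd1 (-1.999), mt-Tf (-1.82), mt-Cytb (-1.77), mt-Co3 (-1.67), mt-Atp6 (-1.62), mt-Atp8 (-1.46), mt-Rnr1 (-1.42), mt-Tv (-1.24), mt-Co1 (-1.23), mt-Rnr2 (-1.13) and mt-Ts1 (-0.83). It was above 0 for mt-Ts2 (2.52), mt-Tl2 (2.48), mt-Th (2.46), mmu-mir-805 (2.42), mt-Tp (2.37), mt-Tt (2.23), mt-Tk (1.47), mt-Tr (1.35) and mt-Nd6 (1.02). Each of these was called in 23 or 24 of the alternatives. Between Mef2cAHF::Cre and Tnnt2::Cre by the labels the 3 that differed were mt-Ts2 (-1.85), mt-Th (-1.72) and mt-Tl2 (-1.65), and by the column names 0 did. mt-Th and mt-Ts2 were called there in 23 of the alternatives by the labels and mt-Tl2 in 15.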

How the results depend on the processing

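Of the 24 members called in Mesp1Cre, 21 stayed past the threshold in the same direction under every alternative run, the exceptions being mt-Ti, mt-Nd4 and mt-Rnr2, and the number called was 22 to 26 without any 1 library. In Mef2cAHF::Cre the members called went from 0 to 4 with DESeq2's Wald test, 6 with no filter on low counts and 3 with the replicate block (0 to 2 without any 1 library). Over all genes the Wald test called 1078 of 29613 there, no filter 1311 of 29613 and the block 517 of 16920. In Tnnt2::Cre the members called went from 0 to 3 with the Wald test and to 2 with no filter (0 to 3 without any 1 library). Over all genes these called 366 and 120 of 25833. Whether replicate numbers pair the samples is not known. Correlations of same-numbered deviations were -0.0358 to 0.177, and with so few libraries a group they cannot settle it. The block gave 25 called in Mesp1Cre and 0 in Tnnt2::Cre. Members that differed between Mesp1Cre and Tnnt2::Cre went from 15 to 9 without the 3 Mef2cAHF::Cre libraries with most genes detected, an alternative chosen after seeing the data, and were 8 to 17 without any 1 library. Between Mesp1Cre and Mef2cAHF::Cre they went from 21 to 7 by the column names. Between Mef2cAHF::Cre and Tnnt2::Cre they went from 3 to 0 by the column names and to 0 without those 3 libraries, which leaves 1 library labelled mutant. The difference in share went from -8.61 points in Mesp1Cre to -0.956 without the rRNA genes and -0.601 over coding genes (-9.07 to -8.26 without any 1 library). In Mef2cAHF::Cre it went from 3.64 to 0.439, 0.178 and, by the column names, -3.64 (2.70 to 4.39). In Tnnt2::Cre it went from 0.528 to -0.917 without hemoglobin genes and 3.71 on FPKM (-0.900 to 1.89). For Mesp1Cre the fit over 6 groups called 3593 of 18391 genes, against 1821 of 15883 in the main fit. Called machinery genes in Mesp1Cre went from 2 to 1 on FPKM with either pseudocount and 6 in the fit over 6 groups (0 to 4). In Mef2cAHF::Cre 1 was called with no filter (0 to 1), and in Tnnt2::Cre 0 to 1. Called respiratory genes in Mesp1Cre went from 17 to 11 with the block, 9 on FPKM with either pseudocount and 26 in the fit over 6 groups (5 to 19). In Mef2cAHF::Cre they went from 8 to 18 with the Wald test, 15 with no filter, 5 with the block, 2 on FPKM, 2 in the fit over 6 groups and 0 without the 3 libraries, where 1 library stood against 2 and 2 of 17551 genes were called in all (1 to 8), and in Tnnt2::Cre from 0 to 2 with the Wald test and 1 with no filter (0 to 3). Signs turned for mt-Nd3 in Mesp1Cre with the block (-0.017, and -0.080 to 0.24 without any 1 library). In Mef2cAHF::Cre they turned by the column names, giving mt-Th 0.68, mt-Ts2 0.70, mt-Tl2 0.64, mt-Nd6 0.056, mt-Co1 -0.21, mt-Rnr2 -0.34, mt-Co3 -0.45, mt-Rnr1 -0.30 and mt-Tv -0.30, and for mt-Nd6 without the 3 libraries (0.17, and -0.17 to 0.15 without any 1). In Tnnt2::Cre they turned for mt-Rnr2 on FPKM with either pseudocount (0.0056), and without 1 library for mt-Atp6 (-0.23 to 0.0073) and mt-Rnr1 (-0.068 to 0.22). Apart from changes made by construction, the cause was not tested.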
